A study of Mus musculus with 10 samples.

Results

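A group of 9 secreted inflammatory signals was followed across mesenchymal cells of mouse skin and bone marrow: the cytokines Il6, Lif and Il33 and the chemokines Cxcl1, Cxcl2, Cxcl14, Ccl2, Ccl7 and Ccl11. The list was chosen with earlier results of these data known. Its genes were matched by symbol, and all 9 were found among the 14995 genes of the count table. All 9 passed the filter on low counts in every comparison. Expression was measured by bulk RNA sequencing of freshly sorted cells in 10 libraries, and the question was how skin cells that express the transcription factor Ebf2 differ from Ebf2- skin cells and from bone marrow mesenchymal stem cells. The 3 skin Ebf2+ libraries and the 3 skin Ebf2- libraries came from dorsal skin of 3 FVB/N mice aged 8 to 12 weeks, and the skin Ebf2- cells were also sorted as CD140a+ and Sca1+ (PαS). The 4 bone marrow libraries came from 4 C57BL/6 mice aged 8 to 10 weeks, and the cells were sorted as SCA1+ and CD51+. All 3 populations were taken after enzyme digestion from the fraction negative for CD45, TER119 and CD31, the markers of leukocytes, red cells and endothelium. The sources used here do not say how Ebf2 was detected in the sort. Whether each mouse gave both kinds of skin cells is not stated. Tissue, strain and sort markers differ together between skin and bone marrow and cannot be told apart.

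Chemokines are small secreted proteins that direct the movement of leukocytes through receptors on those cells. The CXC chemokines Cxcl1 and Cxcl2 attract neutrophils, whereas Ccl2 and Ccl7 attract monocytes and Ccl11 attracts eosinophils. Il6 and Lif signal through receptor complexes that share gp130 (Il6st) and through JAK kinases and STAT3, and Il33 is a nuclear cytokine released from damaged cells. Fibroblasts of skin and stromal cells of bone marrow are known sources of several of them, and many are switched on by NF-kB, a transcription factor of inflammation and stress.

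Skin libraries held 9.83 to 14.1 M counts and bone marrow libraries 18.1 to 39.4 M, so that 3 counts correspond to 0.0761 to 0.305 CPM (counts-per-million values) before scaling. Levels below are CPM with TMM scaling. Ebf2 itself ranged from 156.6 to 316.8 in skin Ebf2+, from 47.11 to 73.47 in skin Ebf2- and from 141.4 to 337.5 in bone marrow (CPM), so it was lower in the Ebf2- sort but not at 0. Pdgfra (CD140a), Ly6a (Sca1) and Itgav (CD51) were at 74.12 CPM or more in every library. The leukocyte marker Ptprc (CD45) reached 61.94 CPM in skin Ebf2- 2 and at most 0.8628 CPM in any other library. Per the labels, bone marrow 1, 2 and 3 were drawn from an earlier published study, and nothing of the kind is said of bone marrow 4. Bone marrow 1 and 4 nearly coincided: the median chi-square per gene between them was 0.936, where counting error alone gives 0.455 and every other pair within a group gave 28.0 to 109. The labels give them as separate samples and they were kept so, but 1 library sequenced or deposited more than once cannot be told apart from near-identical samples with these values, and n = 4 may then stand for 3 independent samples. Each edgeR call against bone marrow is therefore also given with both summed into 1. The 2 skin libraries numbered 3 stood apart in ribosomal RNA, with 0.593% and 0.170% of counts on Rn45s against 3.04% to 12.5% elsewhere.

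The members lie at 6 places in the genome (RefSeq positions, GRCm38.p6). Cxcl1 (chr5:90891245-90893121) and Cxcl2 (chr5:90903899-90905938) are neighbours in a chemokine cluster on chromosome 5, which also carries Il6 far away (chr5:30013114-30019975). Ccl2 (chr11:82035577-82037452), Ccl7 (chr11:82045712-82047525) and Ccl11 (chr11:82057832-82062955) follow each other in a cluster on chromosome 11, and Lif lies elsewhere on that chromosome (chr11:4257568-4272514). Cxcl14 (chr13:56288643-56296811) and Il33 (chr19:29925113-29960718) stand alone. The promoters of Il6, Cxcl1 and Cxcl2 are shown because these 3 genes carried the 3 smallest unadjusted p-values of the group between the skin populations. Each line is the 150 bases before the RefSeq start, 5′ to 3′, with matches to the kappa-B consensus, the binding motif of NF-kB, in capitals.
Il6, chr5:30012964-30013113, plus strand: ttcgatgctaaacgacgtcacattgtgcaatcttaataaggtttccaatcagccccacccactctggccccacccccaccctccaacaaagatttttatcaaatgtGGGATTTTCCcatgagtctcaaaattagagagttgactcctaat
Cxcl1, chr5:90891095-90891244, plus strand: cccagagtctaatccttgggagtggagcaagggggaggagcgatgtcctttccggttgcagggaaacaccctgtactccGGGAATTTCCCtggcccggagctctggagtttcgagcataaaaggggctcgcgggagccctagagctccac
Cxcl2, chr5:90903749-90903898, plus strand: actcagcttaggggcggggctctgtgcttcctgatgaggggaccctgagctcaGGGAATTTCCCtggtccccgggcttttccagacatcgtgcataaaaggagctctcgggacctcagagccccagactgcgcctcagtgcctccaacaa
The 10-letter kappa-B consensus was searched on both strands in windows from 250 bases before to 50 bases after each start. Cxcl1 and Cxcl2 carried the same word, GGGAATTTCC, with a second match, GGAATTTCCC, overlapping it by all but 1 base, at 71 and 97 bases before their starts. Il6 carried GGGATTTTCC 44 bases before its start. Lif carried GGGACGCCCC 178 bases before its start, and windows of Cxcl14 and Il33 held no match. RefSeq windows were found for 6 of the 9 members, and those of Ccl2, Ccl7 and Ccl11 were not analysed here. In all, 4 of 7 member windows held a match, against 8.46% of 32851 windows of all genes. The AP-1 motif TGANTCA was found in 2 of 7 windows (Il6 and Lif; 7.81% of all windows) and the C/EBP motif TTGNGCAA in 1 of 7 (Il6; 2.94%). These matches describe the letters only, and they were searched with the expression results known.

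For 6 of the 9 members, skin Ebf2+ libraries did not overlap skin Ebf2-, yet none passed the test between the skin populations (6.72% of the genes tested did not overlap). Il6, Cxcl1, Cxcl2, Ccl11 and Cxcl14 were higher in every skin Ebf2+ library (5 of 9; 3.00% of all 13477 genes tested had this pattern), and Lif was lower in every one (1 of 9; 3.72% of all genes). In edgeR's quasi-likelihood test 0 of 9 members passed an adjusted p of 0.05, as did 0 of all genes tested (0%). At an unadjusted p under 0.05 there were 3 members, Il6, Cxcl1 and Cxcl2, and 2.55% of all genes. By other tools, DESeq2 called 1 member (Il6) and 130 genes (0.911% of those given an adjusted p), and limma-voom called 0 members and 0 genes (0%). The median log2 difference was 1.11 over the members and 0.01 over all genes tested.

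Against bone marrow, Il6 and Ccl2 were higher in skin Ebf2+ and passed the test. These are 2 of 9 members, against 0.565% of 14520 genes called higher and 0.923% called in either direction. Neither call held with bone marrow 1 and 4 summed. DESeq2 called 4 members and 1140 genes (8.02% of those given an adjusted p). With limma-voom 223 genes were called (1.54%), with Il6, Ccl2 and Ccl11 the members among them. The 5 members Il6, Cxcl1, Cxcl2, Ccl2 and Ccl11 did not overlap bone marrow and were higher in skin Ebf2+ (6.07% of all genes), and 6 had an unadjusted p under 0.05 (14.6% of all genes). The median log2 difference was 1.60 over the members and 0.09 over all genes tested. In skin Ebf2- against bone marrow 0 of 9 members passed, against 0.730% of genes, and 2 had an unadjusted p under 0.05 (12.2% of genes). DESeq2 called 1 of them there, Ccl2, and 814 genes (5.61% of those given an adjusted p). Without both skin libraries numbered 3, edgeR also called Ccl2 alone of the members, and 81 genes (0.555%). Lif, Ccl2 and Ccl11 were higher in skin Ebf2- without overlap (3 of 9; 9.46% of genes), and the median was 0.59 against 0.06 over all genes tested. The 3 comparisons share samples with one another, so their values are given side by side and are not independent. The members were chosen with earlier results of these data known, so the shares beside them are no test of the group.

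**Figure D1:**
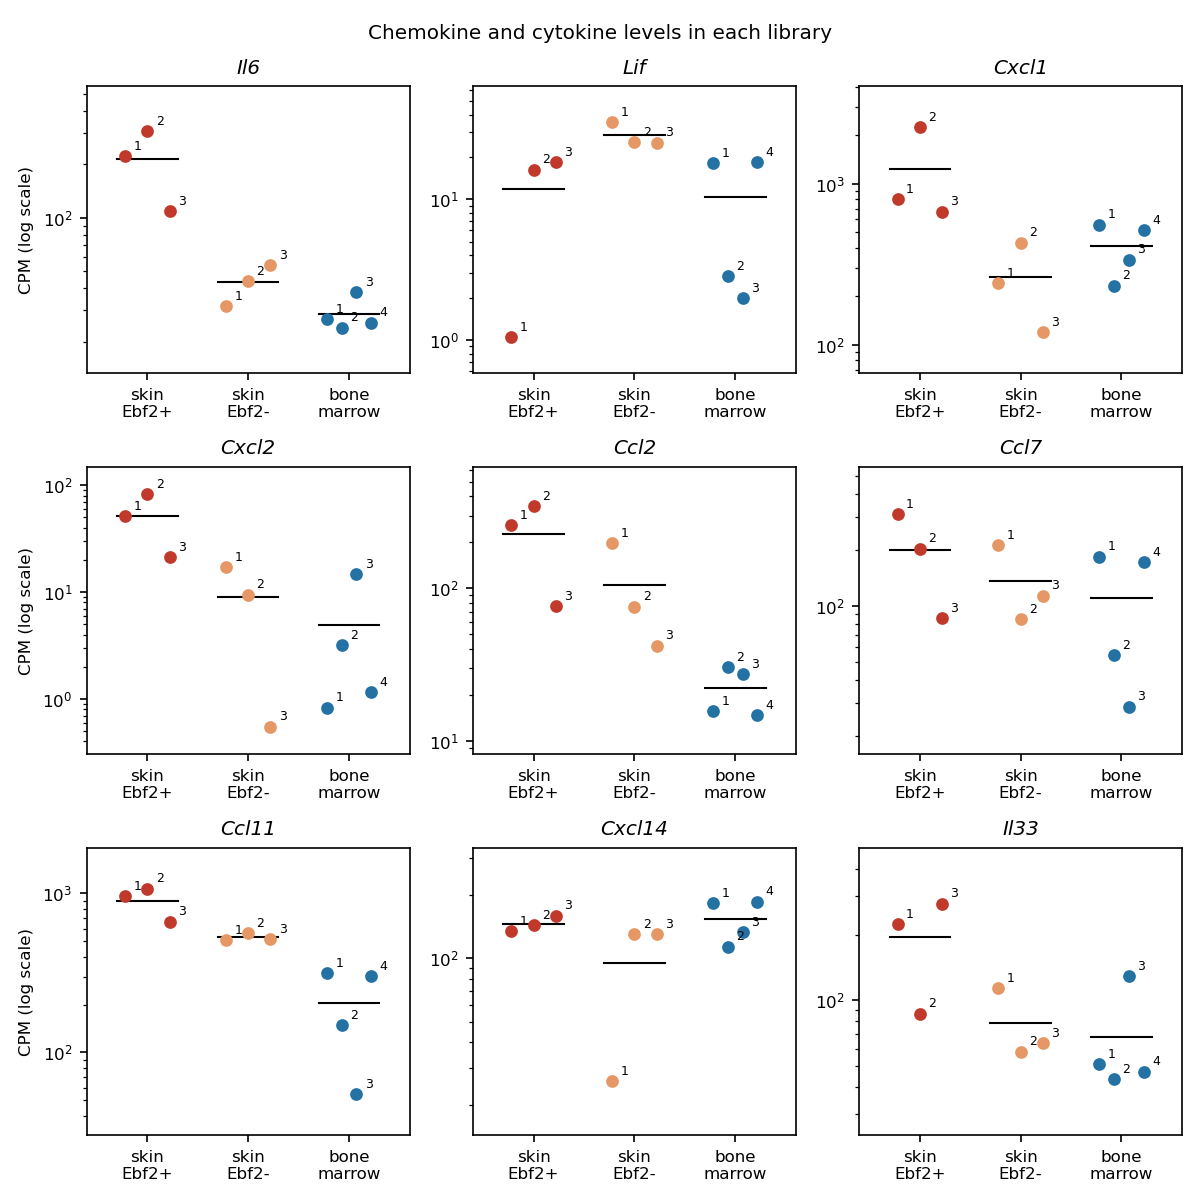
Level of each of the 9 genes in each library, in CPM on a log axis, by population; points are libraries with their replicate number, and bars are group means. The 3 skin Ebf2+ points of Il6 lie at 109.2 CPM or above and all 7 other points at 53.79 CPM or below.

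Il6, the cytokine of the acute phase response, stood at 222.4, 306.3 and 109.2 CPM in skin Ebf2+ 1, 2 and 3, at 31.68, 43.99 and 53.79 CPM in skin Ebf2-, and at 26.92, 24.0, 38.16 and 25.67 CPM in bone marrow 1 to 4. All skin Ebf2+ libraries were above all others, with library 3 the lowest of them, and skin Ebf2- overlapped bone marrow. The means were 213 ± 98.9 (SD, n = 3), 43.2 ± 11.1 (n = 3) and 28.7 ± 6.43 CPM (n = 4). Il6 was 7.42-fold higher in skin Ebf2+ than in bone marrow (log2 difference 2.89 ± 0.47 SE, edgeR adjusted p = 0.0134). With bone marrow 1 and 4 summed the difference was 2.83 ± 0.57 and did not pass (edgeR adjusted p = 0.0599). It also missed the threshold without bone marrow 1 (edgeR adjusted p = 0.0609) and without bone marrow 4 (0.0595). Between the skin populations the difference was 2.30 ± 0.61 (edgeR adjusted p = 0.873, unadjusted p = 0.00423), and the ratio by library number was 7.02, 6.96 and 2.03. DESeq2 called this difference (adjusted p = 0.0491). Skin Ebf2- against bone marrow gave 0.59 ± 0.45 (edgeR adjusted p = 0.671).

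Lif, a cytokine of the same family that keeps mouse embryonic stem cells undifferentiated, had the opposite order in skin. It stood at 1.046, 16.29 and 18.43 CPM in skin Ebf2+, at 35.55, 25.62 and 25.28 CPM in skin Ebf2-, and at 18.2, 2.829, 1.983 and 18.37 CPM in bone marrow. Skin Ebf2- was above every other library, while skin Ebf2+ and bone marrow overlapped widely. Skin Ebf2+ 1 was the lowest of all 10, and bone marrow split into 1 and 4 near 18 CPM and 2 and 3 below 3 CPM. No difference passed: the log2 value was -1.28 ± 1.0 between the skin populations (edgeR adjusted p = 1), 0.21 ± 1.0 for skin Ebf2+ against bone marrow (0.95) and 1.48 ± 1.0 for skin Ebf2- against bone marrow (0.618). The second of these changed sign when any of 4 single libraries was left out.

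Cxcl1, a neutrophil attractant that signals through Cxcr2, had the highest mean level per kb of exon of the 9 members in skin Ebf2+. It stood at 803.6, 2242 and 669.2 CPM in skin Ebf2+, at 240.1, 430.7 and 120.2 CPM in skin Ebf2-, and at 555.7, 232.9, 337.1 and 514.3 CPM in bone marrow. Skin Ebf2+ did not overlap either other group, and library 2 was the highest in both skin populations. The ratio of skin Ebf2+ to skin Ebf2- by library number was 3.35, 5.21 and 5.57, so the relative difference varied less than the levels did. The log2 difference between the skin populations was 2.23 ± 0.75 (edgeR adjusted p = 1, unadjusted p = 0.015). With the replicate number as a block its error was smaller (2.20 ± 0.28), and it still missed the threshold (edgeR adjusted p = 0.0933). Against bone marrow skin Ebf2+ gave 1.60 ± 0.58 (edgeR adjusted p = 0.206) and skin Ebf2- gave -0.63 ± 0.59 (0.739).

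Cxcl2, the second neutrophil attractant of the cluster, was more scattered within groups. It stood at 51.13, 82.42 and 21.18 CPM in skin Ebf2+, at 17.19, 9.46 and 0.5497 CPM in skin Ebf2-, and at 0.8319, 3.17, 14.75 and 1.151 CPM in bone marrow. All skin Ebf2+ libraries were again above all others, with little room between skin Ebf2+ 3 and skin Ebf2- 1. The ratio of skin Ebf2+ to skin Ebf2- was 2.97, 8.71 and 38.5 by library number, the last against the library with the least Cxcl2. The log2 difference was 2.50 ± 1.10 between the skin populations (edgeR adjusted p = 1), 3.37 ± 1.17 for skin Ebf2+ against bone marrow (0.191) and 0.87 ± 1.11 for skin Ebf2- against bone marrow (0.823). DESeq2 called the second of these (adjusted p = 0.0261). That log2 difference ranged over the 23 alternatives from 2.52 (without bone marrow 1 and 4) to 5.48 (with a term for the earlier study). The log2 difference of skin Ebf2- ranged from 0.0063 (without skin Ebf2- 1) to 2.98 (with that term). The term leaves bone marrow 4 alone to stand for bone marrow. Without bone marrow 3, the bone marrow library highest in Cxcl2, these log2 differences were 4.91 and 2.43. Of possible 75-base reads from Cxcl2 transcripts, 4.57% also match another gene, and 0% do for the 8 other members. Of the other genes of the cluster, Cxcl3, also a neutrophil attractant, stood at 6.159, 7.754 and 1.412 CPM in skin Ebf2+ and at 1.244, 0.1381 and 0 CPM in skin Ebf2-. In bone marrow it was at 0 in libraries 1, 2 and 4 and at 0.1502 CPM in library 3. Cxcl5 stood at 1.976, 0 and 8.078 CPM in skin Ebf2+ and at 0, 0 and 0.0785 CPM in skin Ebf2-, and at 3.719, 1.756, 0 and 4.254 CPM in bone marrow. Neither passed in any comparison in which it was tested, and the skin Ebf2+ levels of Cxcl5 overlapped bone marrow.

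Ccl2, the main attractant of monocytes through Ccr2, was higher in every skin library than in any of bone marrow. It stood at 261.1, 346.7 and 76.47 CPM in skin Ebf2+, at 197.7, 76.03 and 42.25 CPM in skin Ebf2-, and at 15.71, 30.58, 27.43 and 14.81 CPM in bone marrow. No skin library overlapped bone marrow, and the skin populations overlapped each other. Skin Ebf2+ was 10.32-fold higher than bone marrow (log2 difference 3.37 ± 0.65, edgeR adjusted p = 0.0341). The call did not hold with bone marrow 1 and 4 summed (3.21 ± 0.75, edgeR adjusted p = 0.117). It was also lost when skin Ebf2+ 1 or 2, skin Ebf2- 2 or any single bone marrow library was left out (edgeR adjusted p = 0.0529 to 0.117). Skin Ebf2- against bone marrow gave 2.25 ± 0.63 (edgeR adjusted p = 0.135), and passed with DESeq2 (adjusted p = 0.0171) and without both skin libraries numbered 3 (edgeR adjusted p = 0.0437). With bone marrow 1 and 4 summed it was 2.10 ± 0.72 (edgeR adjusted p = 0.341). The skin populations differed by 1.11 ± 0.78 (edgeR adjusted p = 1), and the ratio by library number was 1.32, 4.56 and 1.81.

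Ccl7, a second monocyte attractant, overlapped in all 3 populations. It stood at 310, 203.4 and 85.8 CPM in skin Ebf2+, at 211.3, 85.14 and 113.5 CPM in skin Ebf2-, and at 184.2, 54.48, 28.75 and 172.3 CPM in bone marrow. The first library of each population was its highest for Ccl7, and the ratio between the skin populations by number was 1.47, 2.39 and 0.756. The log2 difference was 0.55 ± 0.66 in skin (edgeR adjusted p = 1), 0.86 ± 0.66 for skin Ebf2+ against bone marrow (0.603) and 0.32 ± 0.67 for skin Ebf2- against bone marrow (0.902). The last turned to -0.15 without skin Ebf2- 1.

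Ccl11 (eotaxin), which attracts eosinophils through Ccr3, was ordered skin Ebf2+ over skin Ebf2- over bone marrow with no overlap at either step. It stood at 961.7, 1072 and 664.7 CPM in skin Ebf2+, at 508.4, 563.3 and 513.2 CPM in skin Ebf2-, and at 313.5, 148, 54.41 and 300.6 CPM in bone marrow. The skin Ebf2- libraries lay close together (528 ± 30.4 CPM) and those of bone marrow were more spread (204 ± 125 CPM). The ratio between the skin populations was 1.89, 1.90 and 1.30 by number. The log2 difference was 0.77 ± 0.53 between the skin populations (edgeR adjusted p = 1), 2.14 ± 0.55 for skin Ebf2+ against bone marrow (0.0921) and 1.37 ± 0.54 for skin Ebf2- against bone marrow (0.311). The second passed with DESeq2 (adjusted p = 0.00435) and limma-voom (adjusted p = 0.0396), and with bone marrow 1 and 4 summed it was 2.36 ± 0.64 (edgeR adjusted p = 0.17).

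Ccl8, a monocyte attractant that follows in the chromosome 11 cluster and is no member, was highest in skin Ebf2-. It stood at 14.29, 5.925 and 16.55 CPM in skin Ebf2+, at 57.43, 11.39 and 73.34 CPM in skin Ebf2-, and at 4.551, 3.121, 0.3305 and 3.503 CPM in bone marrow. Both skin populations were above bone marrow without overlap, and skin Ebf2- 2 lay among the skin Ebf2+ levels. The log2 difference was 4.04 ± 0.95 for skin Ebf2- against bone marrow (edgeR adjusted p = 0.0766) and -1.95 ± 0.85 between the skin populations (edgeR adjusted p = 1).

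Cxcl14, a chemokine made constitutively in skin epithelium, had even levels in all but 1 library. It stood at 134.9, 143.2 and 159.5 CPM in skin Ebf2+, at 25.97, 129.8 and 130 CPM in skin Ebf2-, and at 183.4, 113.5, 133.2 and 185.8 CPM in bone marrow. Skin Ebf2- 1 alone was low, and the other 9 libraries lay between 113.5 and 185.8 CPM. The log2 difference was 0.61 ± 0.67 between the skin populations (edgeR adjusted p = 1), -0.08 ± 0.52 for skin Ebf2+ against bone marrow (0.966) and -0.69 ± 0.53 for skin Ebf2- against bone marrow (0.67). The ratio between the skin populations was 5.20 in the pair numbered 1 and 1.10 and 1.23 in the others.

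Il33, which acts on mast cells and innate lymphoid cells through Il1rl1 (ST2), stood at 223.4, 86.95 and 276.7 CPM in skin Ebf2+, at 113.8, 58.14 and 63.37 CPM in skin Ebf2-, and at 50.8, 43.45, 128.8 and 47.09 CPM in bone marrow. Skin Ebf2+ 1 and 3 were above all others, but skin Ebf2+ 2 lay within the range of both other groups. Skin Ebf2+ was higher than its equally numbered skin Ebf2- library by ratios of 1.96, 1.50 and 4.37. The log2 difference was 1.31 ± 0.63 between the skin populations (edgeR adjusted p = 1, unadjusted p = 0.0658), 1.53 ± 0.55 for skin Ebf2+ against bone marrow (0.202) and 0.22 ± 0.55 for skin Ebf2- against bone marrow (0.917).

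**Figure D2:**
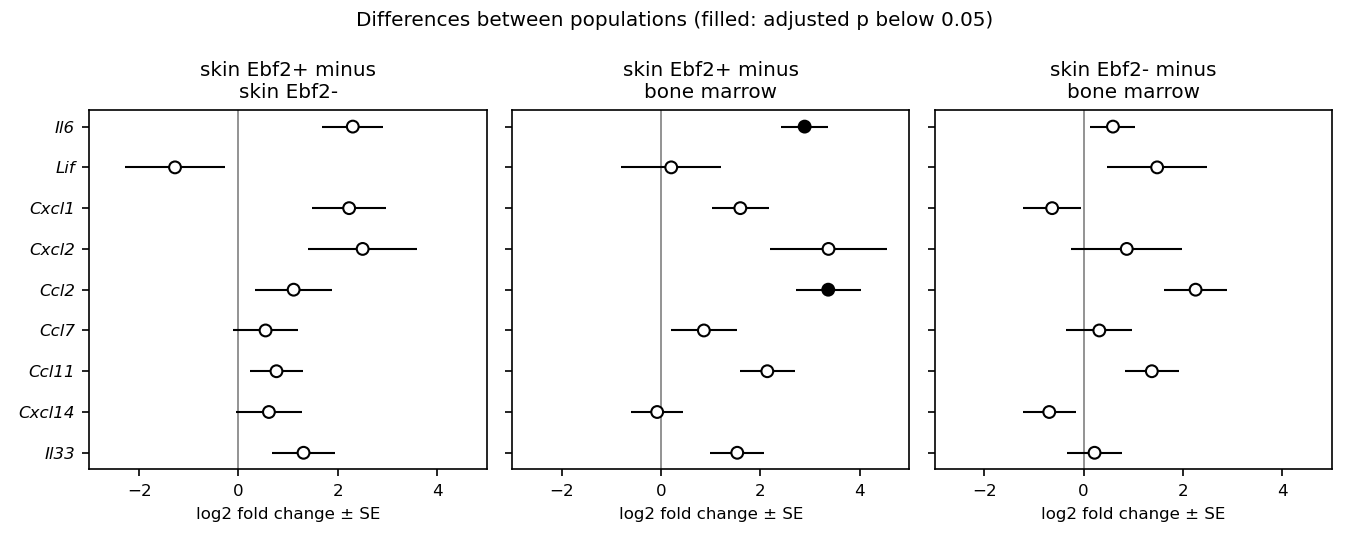
Log2 differences of the 9 genes in the 3 comparisons, with SE as horizontal bars; filled points passed an adjusted p of 0.05 in edgeR. Il6 (2.89 ± 0.47) and Ccl2 (3.37 ± 0.65) against bone marrow are the filled points.

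**Figure D3:**
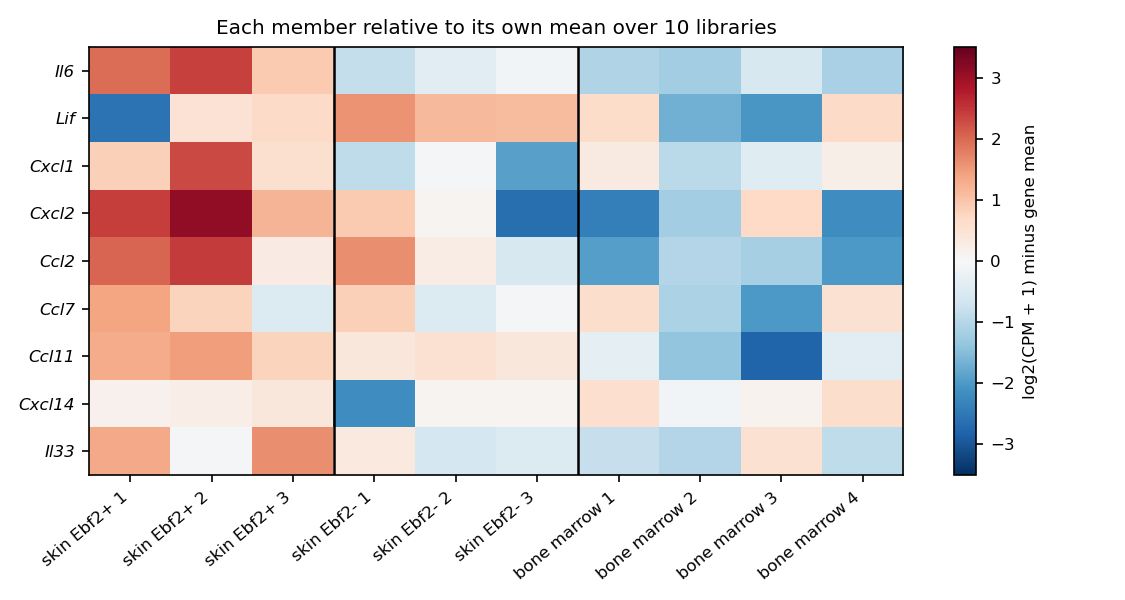
Level of each gene in each library relative to its own mean over the 10 libraries, as log2(CPM + 1) minus that mean, with red above and blue below. Skin Ebf2+ 2 is above the mean for every gene but Il33, and Lif is the gene furthest below its mean in skin Ebf2+ 1.

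Scaled to exon length, so that genes can be compared, Cxcl1 and Ccl11 led the group. In skin Ebf2+ the mean was 1299 CPM per kb of exon for Cxcl1 and 831.2 for Ccl11, followed by 280.6 for Ccl2 and 249.4 for Ccl7. In skin Ebf2- Ccl11 led with 488.3 CPM per kb, ahead of Cxcl1 with 276.7, and in bone marrow Cxcl1 led with 430.2 ahead of Ccl11 with 188.7. Il6 stood at 87.57, 17.77 and 11.81 CPM per kb in skin Ebf2+, skin Ebf2- and bone marrow, and Lif at 2.943, 7.114 and 2.554. Ccl11 was the first member in all 3 skin Ebf2- libraries, with 35.7%, 40.2% and 51.7% of the members' summed level per kb. Cxcl1 was first in all 4 bone marrow libraries, with 42.3% to 57.0%, and in skin Ebf2+ 2 and 3, with 54.6% and 39.6%. Skin Ebf2+ 1 was nearly even, with 32.7% for Ccl11 and 31.0% for Cxcl1. The sum of the 9 levels, not scaled to length, stood at 2969, 4499 and 2081 CPM in skin Ebf2+, at 1382, 1422 and 1062 CPM in skin Ebf2-, and at 1349, 652.9, 764.6 and 1280 CPM in bone marrow. All skin Ebf2+ sums were above all others, and skin Ebf2- overlapped bone marrow. In bulk samples, fewer cells of a type and less RNA per cell cannot be told apart.

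**Figure D4:**
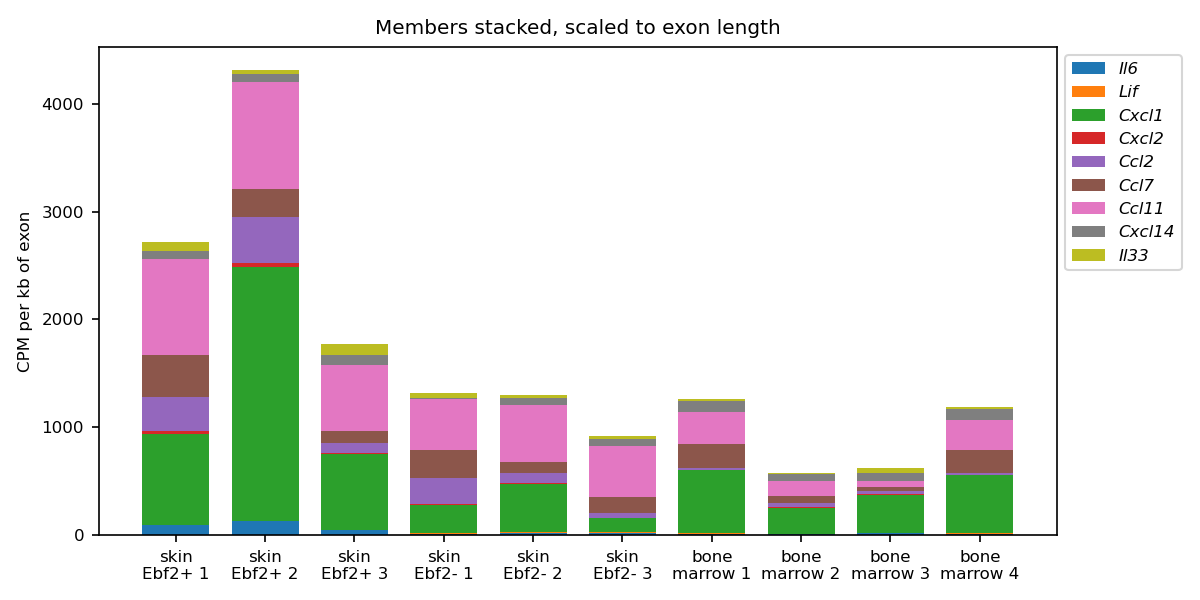
Levels of the 9 genes stacked for each library, in CPM per kb of exon. The Cxcl1 segment is the tallest in all 4 bone marrow libraries and the Ccl11 segment in all 3 skin Ebf2- libraries.

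Of 11 receptor genes listed for the members 5 were in the table, and these were receptors of Il6, Lif and Il33. The 5 receptor genes tested (Il6st, Il6ra, Lifr, Il1rl1 and Il1rap) passed in no comparison by edgeR. Il6st (gp130), the signalling chain shared by the Il6 and Lif receptors, stood at 1281 ± 822, 857 ± 105 and 1026 ± 72.8 CPM in skin Ebf2+, skin Ebf2- and bone marrow, and the groups overlapped. Il6ra, the Il6-binding chain, stood at 65.0 ± 58.6, 103 ± 53.8 and 64.6 ± 17.0 CPM, and Lifr at 115 ± 70.5, 56.0 ± 29.8 and 184 ± 54.5 CPM. Il1rap, the second chain of the Il33 receptor, stood at 22.43, 17.34 and 25.02 CPM in skin Ebf2+, at 24.95, 19.06 and 66.59 CPM in skin Ebf2-, and at 10.18, 7.413, 8.442 and 8.057 CPM in bone marrow. Skin did not overlap bone marrow for Il1rap, with log2 differences of 1.34 ± 0.62 for skin Ebf2+ (edgeR adjusted p = 0.341) and 2.11 ± 0.63 for skin Ebf2- (0.161). Il1rl1, the chain that binds Il33, stood at 14.64, 0.08713 and 0.4706 CPM in skin Ebf2+, at 5.267, 0.06905 and 5.025 CPM in skin Ebf2-, and at 0.09787, 0.04877, 0 and 0 CPM in bone marrow, with overlap between all groups. Of 17 genes of the gp130, JAK and STAT pathway none passed in any comparison (Jak1, with the highest CPM, stood at 395, 444 and 285 CPM), and 14, 14 and 13 of them had positive differences in the 3 comparisons, against 50.4%, 52.6% and 52.2% of all genes tested.

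Among other receptors, 18 were tested and 2 rose in both skin populations against bone marrow, Il1r2 and Il4ra. The chemokine receptors Ackr1, Ackr2, Ackr3, Ackr4, Cxcr4 and Cxcr5 were among the 18, and none of them passed in any comparison. Of all genes tested, 0.923% passed for skin Ebf2+ and 0.730% for skin Ebf2-, in either direction. Il1r2, a decoy that binds Il1 without signalling, stood at 55.55, 31.71 and 193.6 CPM in skin Ebf2+, at 115.6, 132.4 and 496.3 CPM in skin Ebf2-, and at 0, 0.4389, 2.884 and 0.2502 CPM in bone marrow. Every skin library was more than 10 times any bone marrow library, and the libraries numbered 3 were the highest of each skin population. The log2 difference against bone marrow was 6.66 ± 1.27 for skin Ebf2+ (edgeR adjusted p = 0.033) and 8.07 ± 1.35 for skin Ebf2- (0.0157). With bone marrow 1 and 4 summed the adjusted p-values by edgeR were 0.0535 and 0.022, and without both skin libraries numbered 3 neither passed (0.0588 and 0.0537). Leaving out bone marrow 2 ended both calls (edgeR adjusted p = 0.094 and 0.0718), and leaving out 1 library ended the call in 4 of 10 cases for skin Ebf2+ and in 2 of 10 for skin Ebf2-. Il4ra, the receptor chain for Il4 and Il13, stood at 244.9, 234.6 and 442.9 CPM in skin Ebf2+, at 188, 399 and 474.4 CPM in skin Ebf2-, and at 59.65, 61.74, 14.99 and 64.26 CPM in bone marrow, with no overlap between skin and bone marrow. It was 2.61 ± 0.56 higher in skin Ebf2+ (edgeR adjusted p = 0.0499) and 2.82 ± 0.56 higher in skin Ebf2- (0.0428), on the log2 scale. Neither call held with bone marrow 1 and 4 summed (edgeR adjusted p = 0.132 and 0.113), and leaving out 1 library ended the call in 10 of 10 and 8 of 10 cases.

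Of the NF-kB pathway and its targets, 2 of 28 genes tested rose in skin Ebf2+ against bone marrow. Of all genes tested, 0.565% were called higher there. Ptges, which makes prostaglandin E2, stood at 263.6, 264.7 and 198.1 CPM in skin Ebf2+, at 81.13, 92.87 and 153.4 CPM in skin Ebf2-, and at 35.82, 45.11, 44.01 and 37.58 CPM in bone marrow. The 3 populations did not overlap, in that order. The log2 difference of skin Ebf2+ from bone marrow was 2.58 ± 0.41 (edgeR adjusted p = 0.0121). Ptx3, a secreted pattern recognition protein, stood at 434.9, 170.5 and 283.4 CPM in skin Ebf2+ and at 290.8, 279.7 and 158.5 CPM in skin Ebf2-. In bone marrow it stood at 52.41, 30.58, 76.88 and 49.79 CPM. The skin populations overlapped each other, and both were above bone marrow without overlap. Ptx3 differed between skin Ebf2+ and bone marrow by 2.50 ± 0.48 (edgeR adjusted p = 0.0341). With bone marrow 1 and 4 summed neither passed (edgeR adjusted p = 0.0599 and 0.12). Leaving out 1 library ended the call of Ptges in 2 of 10 cases and that of Ptx3 in 7 of 10. None of the list passed in the other 2 comparisons, and its median log2 difference was 0.28 between the skin populations, 0.68 for skin Ebf2+ and 0.12 for skin Ebf2- against bone marrow. Over all genes tested these medians were 0.01, 0.09 and 0.06.

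Other chemokines and cytokines showed no called difference. Of 32 other chemokines 15 were in the table, and none of the 12 tested in skin or the 13 tested against bone marrow passed. The highest mean was that of Cxcl12, which retains blood stem cells in bone marrow, at 846, 537 and 1286 CPM in skin Ebf2+, skin Ebf2- and bone marrow. Bone marrow 1, 2 and 4 were at 1611, 1732 and 1540 CPM. Bone marrow 3, at 259.2 CPM, was below every skin Ebf2+ library (470.5 to 1337 CPM). Of 27 other cytokines 20 were in the table, and none of the 14 tested in skin or the 18 tested against bone marrow passed. Csf1, the growth factor of macrophages, had the highest mean of them, at 321, 559 and 325 CPM. The median log2 difference of the other chemokines was 0.33, 0.46 and 0.62 and of the other cytokines -0.51, 0.27 and 0.82 in the 3 comparisons. That of all genes tested was 0.01, 0.09 and 0.06.

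Genes switched on by tissue digestion and markers of other cells were set beside these results. The summed level of the 29 immediate early and dissociation genes ranged from 24520 to 38950 in skin Ebf2+, from 22660 to 27660 in skin Ebf2- and from 15780 to 33250 in bone marrow (CPM). None passed between the skin populations, where their median log2 difference was 0.48, against 0.01 over all genes tested. The heat shock genes Hspa1a and Hspa1b, 2 of the 29, rose in each skin population against bone marrow. There, 0.923% (skin Ebf2+) and 0.730% (skin Ebf2-) of all genes tested passed in either direction. Hspa1a was 3.15 ± 0.45 higher in skin Ebf2+ (edgeR adjusted p = 0.00771) and 3.86 ± 0.47 higher in skin Ebf2- (0.00259), on the log2 scale. Hspa1b was 3.35 ± 0.51 and 4.03 ± 0.52 higher (edgeR adjusted p = 0.0107 and 0.0037). These genes are near-identical copies, so reads may be split between them. Their calls held with bone marrow 1 and 4 summed (edgeR adjusted p = 0.0163 to 0.0492), and leaving out bone marrow 1 ended that of Hspa1b in skin Ebf2+ (0.0511). The part of digestion in the chemokine and cytokine levels was not tested.

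All 10 mural markers (vascular smooth muscle and pericytes) were in the table. Their summed level was 985.8, 4546 and 752.8 CPM in skin Ebf2+ 1, 2 and 3. It ranged from 48.41 to 184.2 in skin Ebf2- and from 298.2 to 452.9 in bone marrow. Skin Ebf2+ 2, with the largest mural sum, also had the highest Il6, Cxcl1, Cxcl2, Ccl2 and Ccl11 of all libraries. The same library had the largest sum of the immediate early and dissociation genes (38950 CPM). Its Il33 was the lowest of the skin Ebf2+ libraries (86.95 CPM). None of the 10 mural markers passed between the skin populations (median log2 difference 4.42). Of them 3 rose in skin Ebf2+ against bone marrow (median 4.22), where 0.565% of all genes were called higher. With bone marrow 1 and 4 summed 0 were called. No mural marker was at 0 in skin Ebf2+, and Rgs5 was at 0 in skin Ebf2- 1 and 3. The part of mural cells in the results was not tested. Of 12 macrophage and dendritic markers 8 were in the table, and their sums ranged from 17.43 to 86.52 in skin Ebf2+, from 22.68 to 315.6 in skin Ebf2- and from 10.83 to 48.13 in bone marrow. Of 10 leukocyte markers 6 were in the table. They summed to 866.7 CPM in skin Ebf2- 2 and to at most 7.462 CPM elsewhere, and Ptprc was at 0 in skin Ebf2+ 1 and 2. Of 10 endothelial markers 6 were in the table, with sums of 92.36 to 367.5 in skin Ebf2+, 158.5 to 206 in skin Ebf2- and 41.82 to 76.29 in bone marrow. Tek alone was at 341.2, 19.26 and 239.5 CPM in skin Ebf2+ 1, 2 and 3. Pecam1 was at 0 in skin Ebf2+ 1 and 2 and skin Ebf2- 1, and highest in skin Ebf2+ 3 (20.94 CPM). Cdh5 and Esam were highest in skin Ebf2+ 2 (8.016 and 48.44 CPM). All 12 keratinocyte markers were in the table, and their sums ranged from 20.47 to 1260 in skin Ebf2+, from 304.7 to 1144 in skin Ebf2- and from 10.57 to 18.58 in bone marrow. Skin Ebf2+ 2, highest in those 5 members, had the 20.47 CPM, with Krt15, Krt1, Krt17, Sfn and Cdh1 at 0. Of the keratinocyte markers 6 were called higher in each skin population than in bone marrow, and 1 in each with bone marrow 1 and 4 summed. Before summing, 0.923% (skin Ebf2+) and 0.730% (skin Ebf2-) of all genes tested were called in either direction. Of the macrophage and dendritic markers 1, Cd74, was called higher in skin Ebf2- than in bone marrow, and 0 with both summed. Of 10 mast cell and neutrophil markers 2 were in the table, Kit and Mpo, and neither was called against bone marrow. They summed to 14.99, 18.73 and 13.57 CPM in skin Ebf2+, ranged from 0.5524 to 2.341 in skin Ebf2- and from 4.975 to 29.17 in bone marrow, with Kit at 0 in skin Ebf2+ 1 and Mpo at 0 in skin Ebf2- 2 and bone marrow 4. The part of these cells in the results was not tested.

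Across the 10 libraries the members followed one another loosely. Likeness was measured as the root mean square difference of log2(CPM + 1) after centring each gene, where a lower value is more alike. The closest pair was Ccl7 and Ccl11, neighbours on chromosome 11, at 0.77, followed by Il6 and Cxcl1 at 0.92 and Il6 and Ccl2 at 0.95. The neighbours Cxcl1 and Cxcl2 were at 1.47, Ccl2 and Ccl7 at 1.38, and the least alike pair was Lif and Cxcl2 at 2.70. Among 11078 genes with a mean of at least 5 CPM, those closest to Il6 were Hacd3 (0.44), Dsn1 (0.47) and Ptges (0.51). Closest to Cxcl1 was Gng11 (0.56), to Cxcl2 Mark1 (0.50), to Ccl2 Slc15a2 (0.45) and to Ccl7 Gbp6 (0.34). Closest to Ccl11 was Mndal (0.43), to Cxcl14 Naa80 (0.37), to Lif Fam234b (0.60) and to Il33 Bambi (0.44). Nfkbia, an inhibitor of NF-kB, came next for Il33 (0.51). These values describe likeness over libraries that differ in tissue, strain and depth together.

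**Figure D5:**
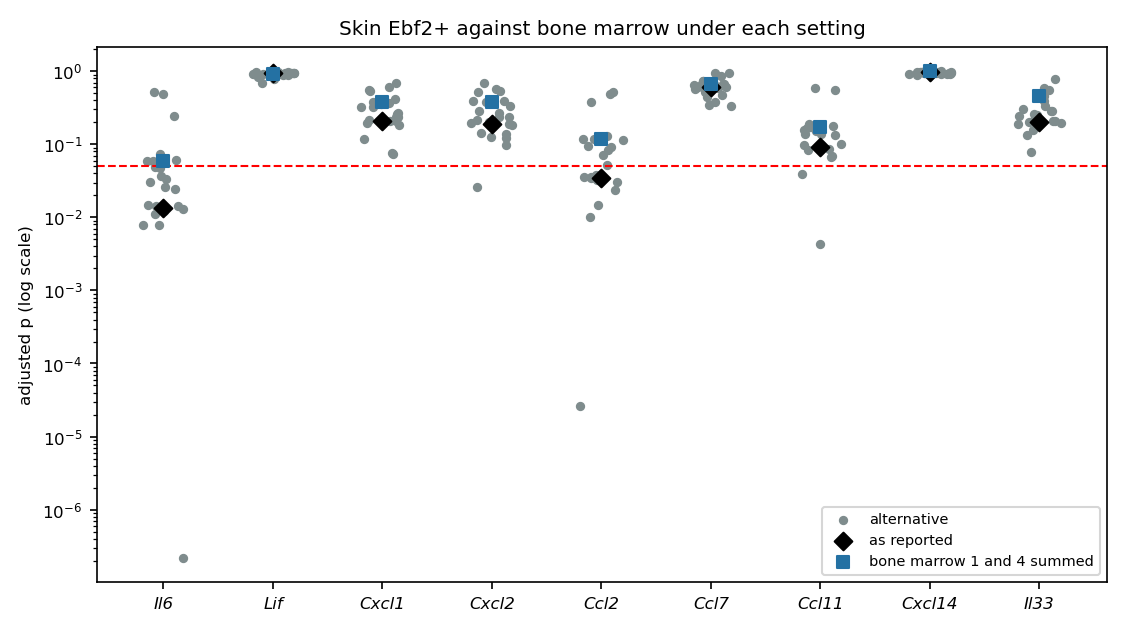
Adjusted p of each gene for skin Ebf2+ against bone marrow, on a log axis, as reported (diamonds), with bone marrow 1 and 4 summed (squares) and under the other alternatives (dots); the dashed line is 0.05. Il6 was below the line under 16 of 23 alternatives and Ccl2 under 11 of 23.

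Il6 and Ccl2 against bone marrow kept their direction under all 23 alternatives, with log2 differences of 2.51 to 3.21 for Il6 and 2.89 to 3.95 for Ccl2. With a term for the earlier study neither passed (edgeR adjusted p = 0.521 for each), nor did either without the 3 bone marrow libraries of the earlier study (0.486 for Il6 and 0.495 for Ccl2), which leaves 1 bone marrow library, assumed to vary like the other groups.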

How the data were processed

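RNA was measured in 10 libraries. Per the labels' protocols, RNA was isolated with the RNeasy Micro kit, cDNA was made with SMART-Seq v4 and Nextera XT libraries were read as 75 bp single-end reads. The submitters' processing notes name STAR 2.6.1d, featureCounts (Subread), DESeq2 and, for quality control, FastQC 0.11.8 and MultiQC 1.7. The authors deposited raw counts per Entrez gene, aligned to GRCm38 per the file headers. No source used here gives the strand setting, so overlapping and antisense genes cannot be told apart. Every gene had 21 counts or more in all, so the deposited table had been filtered. Normalized counts of the authors, in 10 further columns, were left unused. Columns were matched to samples by group name and number, a link the labels do not state.

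Counts were tested with edgeR 4.0.16 (R 4.3.3; TMM, filterByExpr, quasi-likelihood, two-sided, Benjamini-Hochberg over all genes tested, adjusted p 0.05). The skin populations were compared in the 6 skin libraries and each with bone marrow in all 10. SE is the log2 difference over the square root of F, and CPM are TMM-scaled over all 10 libraries. The script was tested on simulated counts. DESeq2 1.42.0, limma 3.58.1 (voom), scaling, filters (none, or 10 CPM in 3 libraries), left-out libraries, a replicate block and a term for the earlier study were the alternatives. Exon lengths are unions of GENCODE vM21 exons, and promoters and positions are RefSeq's (GRCm38.p6). P-values measure the spread between these libraries. Reads were amplified and carry no molecular identifiers, so they do not count molecules.

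The members and lists were chosen with earlier results of these data known. All members are named, and of each other list up to 2 passing genes each way with the largest change, or the most abundant where none passed. Cxcl3 in bone marrow, Cxcl5 in skin, Ccl8, Il6ra, Lifr, Il1rap, Il1rl1 and the mural, leukocyte, endothelial, macrophage and keratinocyte genes named singly were chosen after their values were seen. Skin libraries of equal number deviated together across genes (r = 0.181, 0.221 and 0.599), each above 0.1. Unequal numbers 1 and 2 reached 0.147 and 0.142, and the labels do not say what a number marks. Skin and bone marrow numbers did not pair (r = 0.0827, -0.0541 and 0.13 for skin Ebf2+; 0.0344, -0.0401 and 0.0808 for skin Ebf2-).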

Additional observations from a re-analysis of the deposited data

Results flagged for a closer look

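Bone marrow 3 stood apart from the other 3 bone marrow libraries for 2 of the 9 members. The share of all genes for which it does so was not counted. Its Cxcl2 level was 14.75 CPM, where the others lay between 0.8319 and 3.17 CPM, and the gap to the nearest was 0.832 of the group's range, just above the critical 0.829 of Dixon's test for 4 samples. Its Il33 level was 128.8 CPM, where the others lay between 43.45 and 50.8 CPM, with a gap of 0.914 of the range. Chance marks about 1 in 20 groups in this way, and bone marrow 1 and 4, which nearly coincide, are 2 of the 3 others. Bone marrow 3 was also the most deeply sequenced library, with 39.4 M counts.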

How the results depend on the processing

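Over the 27 member results, 509 of 549 alternatives kept direction and side of the threshold, 19 lost the call, 6 gained it and 15 changed sign. The lowest member level in any library, 0.5497 CPM, was above 3 counts, which are at most 0.305 CPM. The cause of the changes below was not tested.

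Between the skin populations, members and genes called were 0 and 0; DESeq2 gave 1 and 130, and the replicate block gave 8 genes and no member. Leaving out any single library gave 0 to 0 for both. For skin Ebf2+ against bone marrow (2 members, 134 genes), DESeq2 gave 4 members and 1140 genes. There, limma-voom gave 223 genes, with Il6, Ccl2 and Ccl11 among them, and leaving out both skin libraries numbered 3 gave 237 genes. The fit of only the 2 groups gave 76 genes. No member was called (0) with the replicate block (67 genes; Il6 adjusted p = 0.0745 and Ccl2 0.128 by edgeR), with bone marrow 1 and 4 summed (51 genes), without both of them (8), with the term for the earlier study (7) or without its libraries (1). Leaving out single libraries gave 0 to 2 members and 44 (without bone marrow 1) to 200 genes (without skin Ebf2+ 3). For skin Ebf2- against bone marrow (0 members, 106 genes), DESeq2 gave 1 member and 814 genes, limma-voom 293 genes, the replicate block 69 and the fit of only the 2 groups 262. Leaving out both skin libraries numbered 3 gave 1 member and 81 genes. Summing bone marrow 1 and 4 gave 47 genes, leaving out both 13, the term for the earlier study 9 and leaving out its libraries 2. Leaving out single libraries gave 0 to 0 members and 34 (without skin Ebf2- 2) to 190 genes (without skin Ebf2+ 2). Since skin and bone marrow numbers do not pair, the block there is given only as an alternative.

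Leaving out single libraries, the log2 difference ranged from -0.25 to 0.71 for Lif and from -0.19 to 0.025 for Cxcl14 (skin Ebf2+ against bone marrow), and from -0.15 to 0.68 for Ccl7 and from -0.16 to 0.75 for Il33 (skin Ebf2- against bone marrow). The log2 difference of Lif turned to -0.17 without skin Ebf2+ 2, -0.25 without skin Ebf2+ 3 or both skin libraries numbered 3, -0.10 without bone marrow 2, -0.17 without bone marrow 3, and -0.62 with the term for, or without, the earlier study, and rose to 2.31 without bone marrow 1 and 4 (edgeR adjusted p = 0.684). That of Cxcl14 turned to 0.018 without bone marrow 1, 0.025 without bone marrow 4 and 0.24 without both. Between skin Ebf2- and bone marrow, Ccl7 turned to -0.15 without skin Ebf2- 1, -0.33 with the term for the earlier study and -0.34 without its libraries. Il33 turned to -0.16 without skin Ebf2- 1 and -0.13 without bone marrow 1 and 4. Under RLE scaling the median log2 difference of all genes was 0.0332, 0.131 and 0.0926 in the 3 comparisons, and unscaled it was -0.0455, 0.195 and 0.225. No member changed direction between TMM and RLE scaling.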
